A study of Mus musculus with 4 samples.

Results

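The genes described here carry symbols that begin with Rab, Snx, Vps, Stx or Vamp followed directly by a digit, and together they encode much of the machinery that moves membrane between the compartments of a cell. The table of counts held 160 such genes out of 24148 genes, made up of 59 Rab GTPases, 10 protein-coding genes named after a Rab (called Rab partners here), 30 Snx, 35 Vps, 15 Stx and 7 Vamp genes and 4 non-coding antisense RNAs of Rab or Rab partner genes. RNA was sequenced from primary cultures of mouse microglia, which are brain macrophages, in 2 untreated control libraries and in 2 libraries from cells given lipopolysaccharide (LPS), a bacterial outer-membrane component, at 10 ng/ml for 4 h. All 4 libraries came from microglia that were detached from mixed glia by shaking and then replated; strain, age and sex are not given in the labels, and no sort for microglia is described. The labels do not tie a replicate to its own culture or animal, so that the p-values below measure the spread between these libraries, which may be technical.

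Rab proteins are small GTPases, each of which marks particular membranes when bound to GTP and recruits the effectors that move, tether or sort vesicles there. Sorting nexins (Snx) bind membrane phosphoinositides through a PX domain and sort cargo out of endosomes. Vps proteins, first found in yeast mutants that missorted vacuolar proteins, form the retromer, the HOPS and CORVET tethers, ESCRT and the GARP and EARP tethers. Syntaxins (Stx) and Vamp proteins are SNAREs, which zip together on opposing membranes and drive their fusion. In macrophages and microglia these routes carry receptors such as Tlr4 to and from the surface, mature phagosomes and release cytokines.

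Totals per library lay between 3617176 and 5095630 counts, of which the 160 genes held 0.659% to 0.825%. The summed levels of oligodendrocyte and astrocyte markers differed mainly between the libraries numbered 1 and 2. The summed level of 10 oligodendrocyte markers was 425 and 69.2 CPM (the usual per-library count scale, here with TMM factors) in control replicates 1 and 2 and 437 and 61.6 CPM in LPS replicates 1 and 2. For 9 astrocyte markers it was 115, 312, 131 and 443 CPM in the same order, with Gjb6 at 0 throughout. Single markers departed from these sums. S100b, listed for astrocytes, had 37.3, 2.71, 39.4 and 2.66 CPM, and Mbp, listed for oligodendrocytes, had 59.6 and 19.2 CPM in control and 21.4 and 8.46 CPM in LPS. The 7 fibroblast markers summed to 28.6 and 45.5 CPM in control and to 43.8 and 71.5 CPM in LPS, with a log2 fold change above 0 for all 5 tested ones (median 0.77, LPS above both controls for 3) and Pdgfrb at 0. Markers of neurons summed to 83.5 to 87.1 CPM and of endothelium to 17.0 to 25.0 CPM (Pecam1 and Tek at 0), and no marker of these 5 other cell types was called. The 12 microglia markers summed to 4206 and 3646 CPM in control and to 2876 and 2619 CPM in LPS, where 10 were tested and none was called (5 at an unadjusted p under 0.05); Itgam had 0 counts in every library and Trem2 at most 2. The part of these cells in the values below was not tested. In bulk RNA, fewer cells of a type and less RNA per cell cannot be told apart.

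Testing required a mean of 10 or more counts per library, which 111 of the 160 genes reached. Coverage differed with how many RefSeq accessions a gene had in the table. Of the 122 genes with 1 accession 102 were tested, and the median of the mean counts of the 122 was 125. Of the 38 genes with more than 1 accession 9 were tested, and the median of the 38 was 1.5. Several central genes of the pathway have no usable value. Rab7, the Rab of late endosomes, has 5 accessions and had 0, 6, 3 and 0 counts in control replicates 1 and 2 and LPS replicates 1 and 2. Rab6a (Golgi), Snx5 (retromer cargo sorting) and Vps26a (retromer) had at most 5 counts in any library, and Rab18, Rab3a, Stx16, Stx18, Vamp5, Vamp7 and Vps54 had none. Of these, Vamp7 has 1 accession and the others have more than 1. Stx11, a syntaxin of immune cells with 3 accessions, had 1, 1, 3 and 1 counts. Whether these low counts reflect low expression was not tested, and how reads shared by several accessions were counted is not given in the sources used here.

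**Figure D1:**
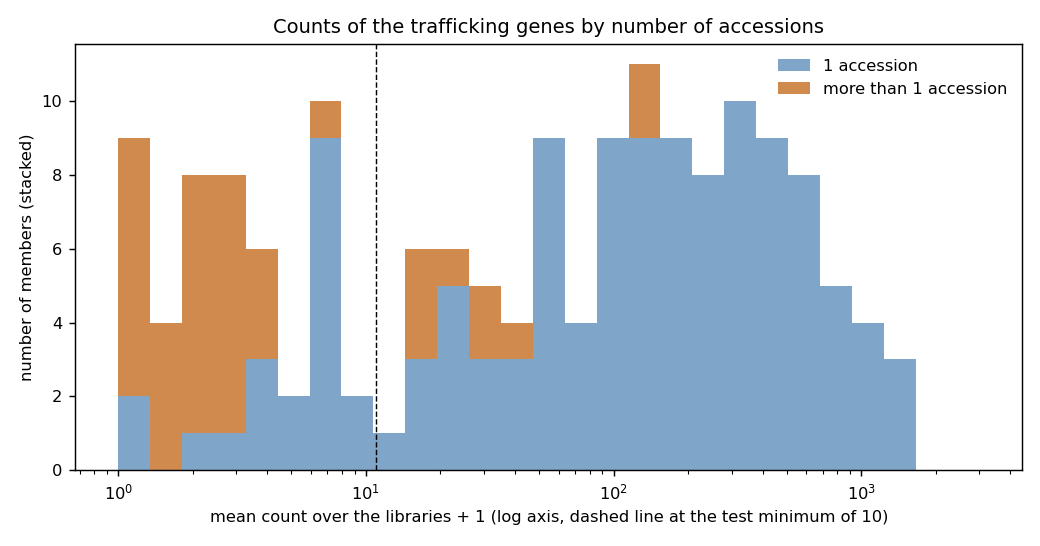
Number of the 160 genes (vertical axis, stacked bars) against their mean count over the 4 libraries plus 1 (horizontal log axis), split by the number of RefSeq accessions of the gene. Of the 38 genes with more than 1 accession, 29 lie left of the dashed line at the test minimum of 10, compared with 20 of the 122 genes with 1 accession.

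The effect of LPS was tested over all 9548 genes that reached the minimum with edgeR's quasi-likelihood test and Benjamini-Hochberg adjustment, and a gene was called at an adjusted p under 0.05. Of the 111 trafficking genes tested, 6 were called higher (Rab11fip1, Rab20, Rab12, Stx6, Rab32 and Snx20) and 4 lower (Rab3il1, Rab7b, Snx30 and Vps13c). The called share was 9.01%, beside 8.34% of all genes tested. Higher calls made up 5.41% of the trafficking genes against 6.55% of all genes, and lower calls 3.6% against 1.79%. The median log2 fold change of the 111 genes was -0.05, as was that of all genes, and 87 of them lay within 2-fold. Both LPS libraries lay above both controls for 33 of the 111 genes, beside 24.7% of all genes, and below them for 34, beside 25.8%. Together that is 60.4% without overlap, beside 50.6% of all genes. An unadjusted p under 0.05 was found for 34 of the 111 genes and for 2033 of the 9548. In this fit the called share and the median lay close to those of all genes, while the shares without overlap and at an unadjusted p under 0.05 were higher. In other settings the called share lay close to that of all genes in some and further from it in others. With all 4 libraries, the called share was above that of all genes in each setting except a minimum mean of 50. With RLE scaling it was 9.91% beside 8.36%. It was 13.6% beside 13.9% at a minimum mean of 50 and 9.09% beside 8.44% with 1 accession per gene. DESeq2 gave 13.5% beside 10.1%, and testing without the count filter gave 9.8% beside 4.87%. With total-count scaling 5 trafficking genes were called higher and 13 lower (16.2%), beside 469 higher and 489 lower over all genes (10.0%). Upper-quartile scaling gave 6 and 9 (13.5%) beside 537 and 320 (8.98%), and limma-trend after quantile normalization gave 5 and 7 (10.8%) beside 524 and 322 (8.86%). The balance of higher and lower calls thus shifted for all genes as well. Leaving out LPS replicate 1 gave 2 higher and 2 lower (3.6%) beside 339 and 33 over all genes (3.84%), and leaving out LPS replicate 2 gave 3 and 3 (5.36%) beside 425 and 33 (4.74%). Without control replicate 1 the counts were 10 and 4 (12.5%) beside 660 and 139 (8.30%), and without control replicate 2 they were 6 and 9 (13.5%) beside 546 and 237 (8.52%).

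Family medians lay within 0.3 of 0 on the log2 scale. That of the 37 tested Rab GTPases was 0.17 (3 higher, 1 lower, 10.8% called), and that of the 9 Rab partners was -0.16 (1 higher, 1 lower, 22.2%). The 23 Snx genes had a median of -0.26 (1 higher, 1 lower, 8.7%) and the 28 Vps genes of -0.25 (1 lower, 3.57%). The 8 Stx genes had a median of 0.09 (1 higher, 12.5%) and the 4 Vamp genes of 0.07 with no call (1 at an unadjusted p under 0.05). Beside these shares, 8.34% of all genes tested were called (6.55% higher, 1.79% lower). Set against the median of all genes in the same fit, the Rab GTPases stood 0.22 above and the Snx genes 0.21 below. Over the other settings the Rab difference ranged from 0.03 to 0.30 and the Snx difference from -0.42 to -0.03, so that both kept their sign. The Stx difference, 0.14, also kept it (0.01 to 0.43). The Vps difference was -0.20 and reached 0.04 without the count filter, and those of the Rab partners and the Vamp genes also changed sign between settings. Summed over all members, Rab GTPases had 3508 and 2909 CPM in control replicates 1 and 2 and 4548 and 3537 CPM in LPS replicates 1 and 2, which is 3208 ± 424 against 4042 ± 714 CPM (SD, n = 2) and leaves the groups barely apart. The Stx genes had 480 and 464 against 658 and 582 CPM, while the sums of the Snx, Vps and Rab partner genes overlapped between the groups.

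**Figure D2:**
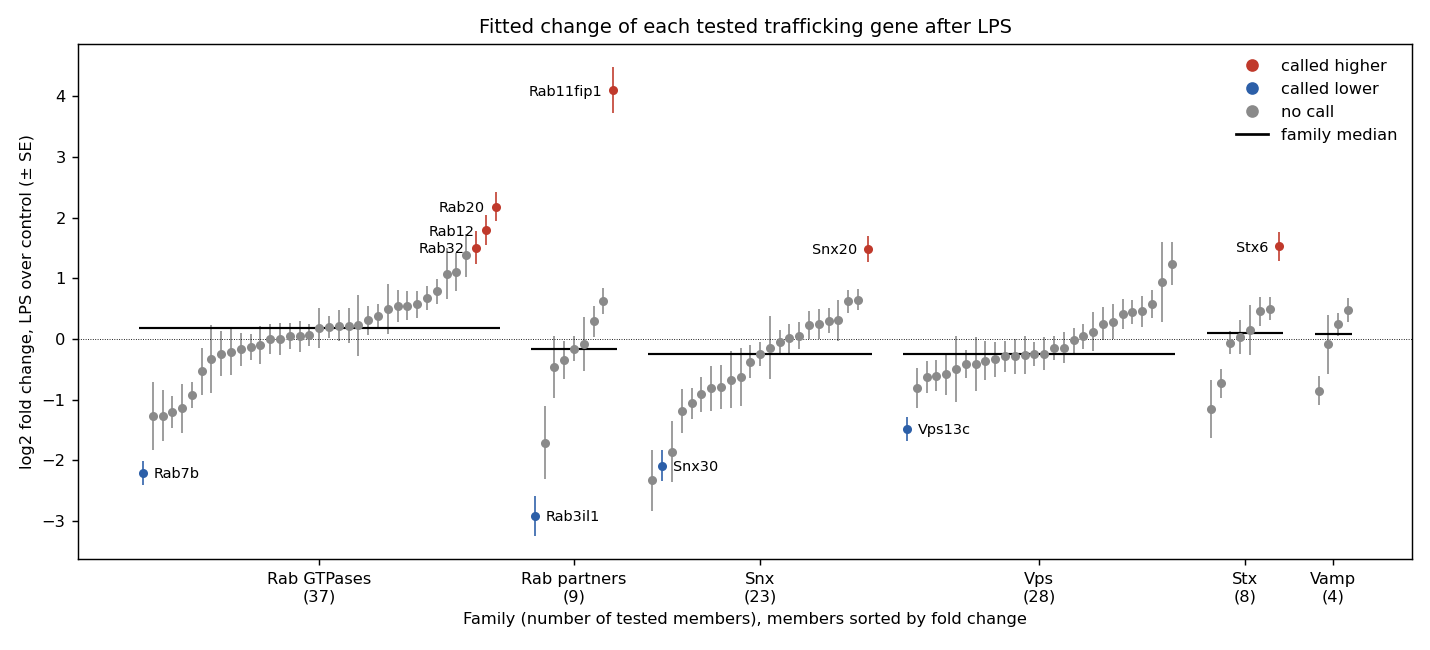
Log2 fold change of LPS over control (vertical axis, point ± SE from edgeR, 2 libraries per group) for each tested gene, ordered within its family. The 6 genes called higher (red) and 4 called lower (blue) stand at the ends of families whose medians (black lines) lie between -0.26 and 0.17.

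The promoters of the called genes are shown for those that rose and have an entry in the RefSeq promoter table for GRCm38.p6, as a view of the sequence next to the genes that moved. Promoters were matched for 120 of the 160 genes and for 6 of the 10 called genes, and each window ran from 250 bases before to 50 after an annotated start. The stretches below are the bases of those windows that lie before the gene's outermost start, read 5′ to 3′ on the gene's strand. They are chr8:11478641-11478890 (minus strand) for Rab20, chr10:10558208-10558457 (minus) for Rab32, chr17:66519751-66519920 (minus) for Rab12 and chr1:155158453-155158627 (plus) for Stx6, in GRCm38. Capitals mark a match to TCACGTG, the core of the CLEAR element that the lysosomal regulator Tfeb binds.
Rab20: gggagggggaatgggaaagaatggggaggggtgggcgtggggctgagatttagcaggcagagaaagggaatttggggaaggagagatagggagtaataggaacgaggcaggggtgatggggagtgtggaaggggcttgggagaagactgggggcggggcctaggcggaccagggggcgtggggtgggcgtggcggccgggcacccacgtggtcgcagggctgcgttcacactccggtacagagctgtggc
Rab32: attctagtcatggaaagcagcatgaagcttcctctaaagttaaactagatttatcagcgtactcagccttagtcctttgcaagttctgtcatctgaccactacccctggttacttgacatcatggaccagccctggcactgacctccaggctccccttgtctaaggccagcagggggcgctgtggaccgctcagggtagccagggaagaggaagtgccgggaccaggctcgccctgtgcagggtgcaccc
Rab12: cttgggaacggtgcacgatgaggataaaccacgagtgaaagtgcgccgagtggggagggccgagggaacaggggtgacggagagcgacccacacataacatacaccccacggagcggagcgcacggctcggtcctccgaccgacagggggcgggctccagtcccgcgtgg
Stx6: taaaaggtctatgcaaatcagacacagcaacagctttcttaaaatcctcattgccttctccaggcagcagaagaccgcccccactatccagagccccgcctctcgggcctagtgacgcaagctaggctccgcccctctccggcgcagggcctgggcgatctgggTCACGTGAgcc
G and C made up 65.2% of the stretch of Rab20, 55.6% of that of Rab32, 66.5% of that of Rab12 and 59.4% of that of Stx6. Searched on both strands, TCACGTG was held by 13 of the 153 promoter windows of the trafficking genes (8.5%, 11 genes), beside 3.77% of all 32851 windows. In Stx6 the match reads on both strands, so that a pair of overlapping matches covers 8 bases. Of the 4 genes called lower, only Rab3il1 and Snx30 had windows to search, and Rab3il1 held a match in 2 of its 5 windows. These 2 windows overlap and share the same matched bases, which lie inside the gene. The count of windows can thus hold 1 site more than once. An NF-kB motif, searched as GGGA and TTTCC with 1 base of any kind between them, was found in 0 of the 153 windows (0.411% of all windows). An interferon response element, searched as GAAA, any 2 bases and GAAA, was found in 6 (3.92%, beside 3.44% of all). None of these windows belonged to a called gene, of which 6 of 10 could be searched. A match describes the letters of these windows and is no evidence of binding.

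Among Rab GTPases of endosomes and phagosomes, Rab20, Rab12 and Rab32 rose. Rab20 (chromosome 8, 11453390 to 11478640), which acts on endosomes and maturing phagosomes, had 18.0 and 14.1 CPM in control replicates 1 and 2 and 72.2 and 73.2 CPM in LPS replicates 1 and 2. Both LPS libraries lay far above both controls, and they nearly coincided. The rise was 4.53-fold (log2 fold change 2.18 ± 0.24 SE, edgeR adjusted p = 0.0056), and it was called in all 12 alternative settings without a replicate block (adjusted p from 1.2e-07 to 0.035).

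Rab12 (chromosome 17, 66494512 to 66519750), which directs recycling receptors to lysosomes and is a substrate of the kinase Lrrk2, went from 35.2 and 31.2 CPM in control to 132 and 97.9 CPM in LPS. LPS replicate 1 was the highest, and the groups did not overlap. It rose 3.46-fold (1.79 ± 0.25, edgeR adjusted p = 0.012). It was no longer called without LPS replicate 1 (1.57, adjusted p = 0.073), and the adjusted p ranged from 9.7e-06 to 0.073 over the settings.

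Rab32 (chromosome 10, 10545039 to 10558207), which serves lysosome-related organelles and mitochondria and in macrophages works with the itaconate enzyme Acod1 against vacuolar bacteria, had 108 and 69.2 CPM in control and 260 and 242 CPM in LPS. The control libraries differed from each other more than the LPS libraries did, yet each lay below both of them. Its rise was 2.84-fold (1.503 ± 0.27, edgeR adjusted p = 0.028). Leaving out LPS replicate 1 (1.46, adjusted p = 0.13) or LPS replicate 2 (1.56, 0.10) ended the call, as did limma-trend after quantile normalization (1.07, 0.058), with a range of 0.00042 to 0.13.

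Rab7b (chromosome 1, 131688681 to 131715443), a late endosomal Rab that in macrophages is known to direct Tlr4 to lysosomes, fell. It had 234 and 250 CPM in control and 53.6 and 51.0 CPM in LPS, so that replicates nearly coincided within each group and the groups lay far apart. The level was 4.63-fold lower in LPS (-2.21 ± 0.19, edgeR adjusted p = 0.0026), and the call held in all 12 settings without a block (adjusted p from 2.6e-11 to 0.031). The summed microglia marker level was also lower in both LPS libraries, and its part in this and the other 3 lower calls was not tested.

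**Figure D3:**
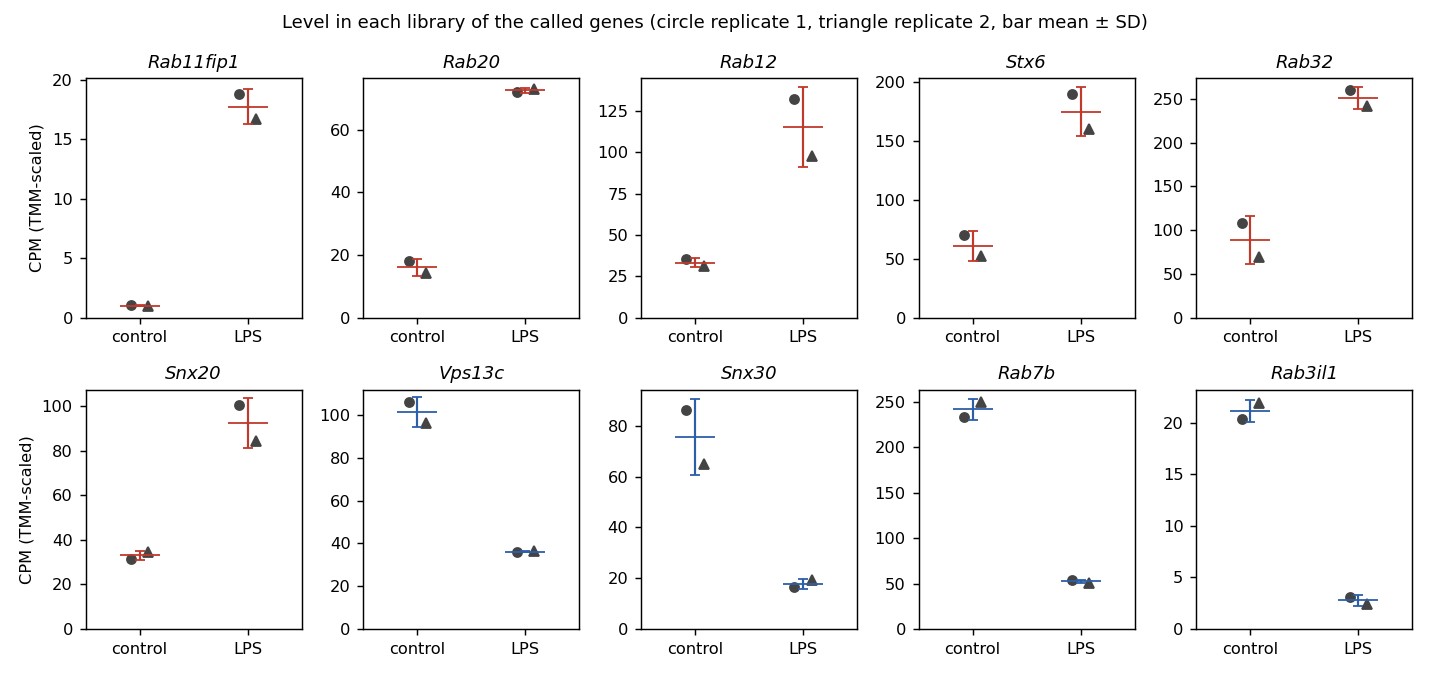
Level in CPM (vertical axes from 0, scale differs per panel) of the 10 called genes in the control and LPS libraries, with circles for replicate 1, triangles for replicate 2 and coloured bars for the mean ± SD (n = 2). In each panel the LPS libraries lie on 1 side of both controls, as the 72.2 and 73.2 CPM of Rab20 against 18.0 and 14.1 CPM.

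The other 33 tested Rab GTPases had no call. Among the 9 Rabs listed for early endosomes the median log2 fold change was 0.55, with 1 call (Rab20, 11.1% beside 8.34% of all genes). LPS lay above both controls for 6 of them, beside 24.7% of all genes, and below for 2, beside 25.8%. Rab5c, which drives fusion of early endosomes, had 198 and 194 CPM in control and 376 and 299 CPM in LPS (0.78 ± 0.20, adjusted p = 0.086), while its paralog Rab5b had 191 and 152 against 167 and 144 CPM (-0.14 ± 0.21, 0.80). Rab21, which traffics integrins, had 78.7 and 38.6 against 155 and 91.8 CPM (1.08 ± 0.43, 0.23), the libraries numbered 1 being higher in both groups. Rab22a, another early endosomal Rab, had 12.7 and 10.3 against 37.8 and 21.7 CPM (1.38 ± 0.36, 0.087), and was called by DESeq2 and without the count filter; Rab5c was called without that filter and Rab21 without control replicate 1. Rab31, which links the trans-Golgi with endosomes, lay on the other side, with 181 and 154 against 96.0 and 80.7 CPM (-0.92 ± 0.21, 0.062), and was called lower with total-count and upper-quartile scaling, by DESeq2, in limma-trend and at a minimum mean of 50. The groups overlapped for Rab5b but not for Rab5c, Rab21, Rab22a or Rab31. Among late endosomal and lysosomal Rabs, 2 of 8 were called higher and 1 lower (median 0.02). That is 37.5% called, beside 8.34% of all genes. The groups did not overlap for 75% of these 8, beside 50.6% of all genes. Rab9, which returns mannose 6-phosphate receptors to the Golgi, had 89.3 and 80.0 CPM in control and 95.7 and 78.3 CPM in LPS, with overlap. Rab29, which like Rab32 binds Lrrk2, had 11.7 and 12.01 against 17.3 and 17.2 CPM (0.54 ± 0.26, 0.32), and Rab39, which has been tied to phagosome acidification, had 6.62 and 5.23 against 2.89 and 2.42 CPM (-1.14 ± 0.40, 0.18).

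Recycling and surface delivery Rabs had a median of 0.28 with 0 of 8 called, beside 8.34% of all genes (3 at an unadjusted p under 0.05). LPS lay above both controls for 5, beside 24.7% of all genes. Rab10, which in macrophages replenishes surface Tlr4, had 276 and 185 CPM in control and 598 and 391.7 CPM in LPS (1.10 ± 0.31, adjusted p = 0.10). Both LPS libraries exceeded both controls, but each group was widely spread, with replicate 1 the higher one in control and in LPS. LPS replicate 1 over control replicate 1 gave a log2 ratio of 1.11, and LPS replicate 2 over control replicate 2 gave 1.08. The adjusted p of Rab10 ran from 0.015 to 0.44 over the settings without a block. It was called by DESeq2 (1.12, 0.035), without the count filter (1.21, 0.015) and without control replicate 1 (1.41, 0.018). Rab8b, which carries cargo to the surface, had 287 and 268 against 497 and 388 CPM (0.67 ± 0.21, 0.13). Rab14 had 221 and 78.9 CPM in control and 159 and 78.1 CPM in LPS, so that the libraries numbered 1 were higher than those numbered 2 in both groups. The 7 Rabs of the endoplasmic reticulum and Golgi had 0 calls by edgeR (0 at an unadjusted p under 0.05) and values up to 0.49. The 3 tested Rabs of regulated secretion, of 8 listed, had no call either. Both LPS libraries lay below both controls for all 3, beside 25.8% of all genes. Their counts were low, with 8 and 11 for Rab27a, 17 and 6 for Rab3d and 19 and 25 for Rab3c in LPS. Rab27a, which docks secretory lysosomes, had 6.09 and 5.04 CPM in control and 1.92 and 2.66 CPM in LPS (-1.26 ± 0.42, 0.16), and Rab3d had 7.68 and 5.81 against 4.09 and 1.45 CPM (-1.27 ± 0.56, 0.28). Rab40c, a Rab with a SOCS box that serves a ubiquitin ligase, had 45.3 and 32.9 against 17.1 and 16.7 CPM (-1.21 ± 0.27, 0.055). It was called lower with total-count and upper-quartile scaling, by DESeq2, in limma-trend, at a minimum mean of 50 and without control replicate 2.

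**Figure D4:**
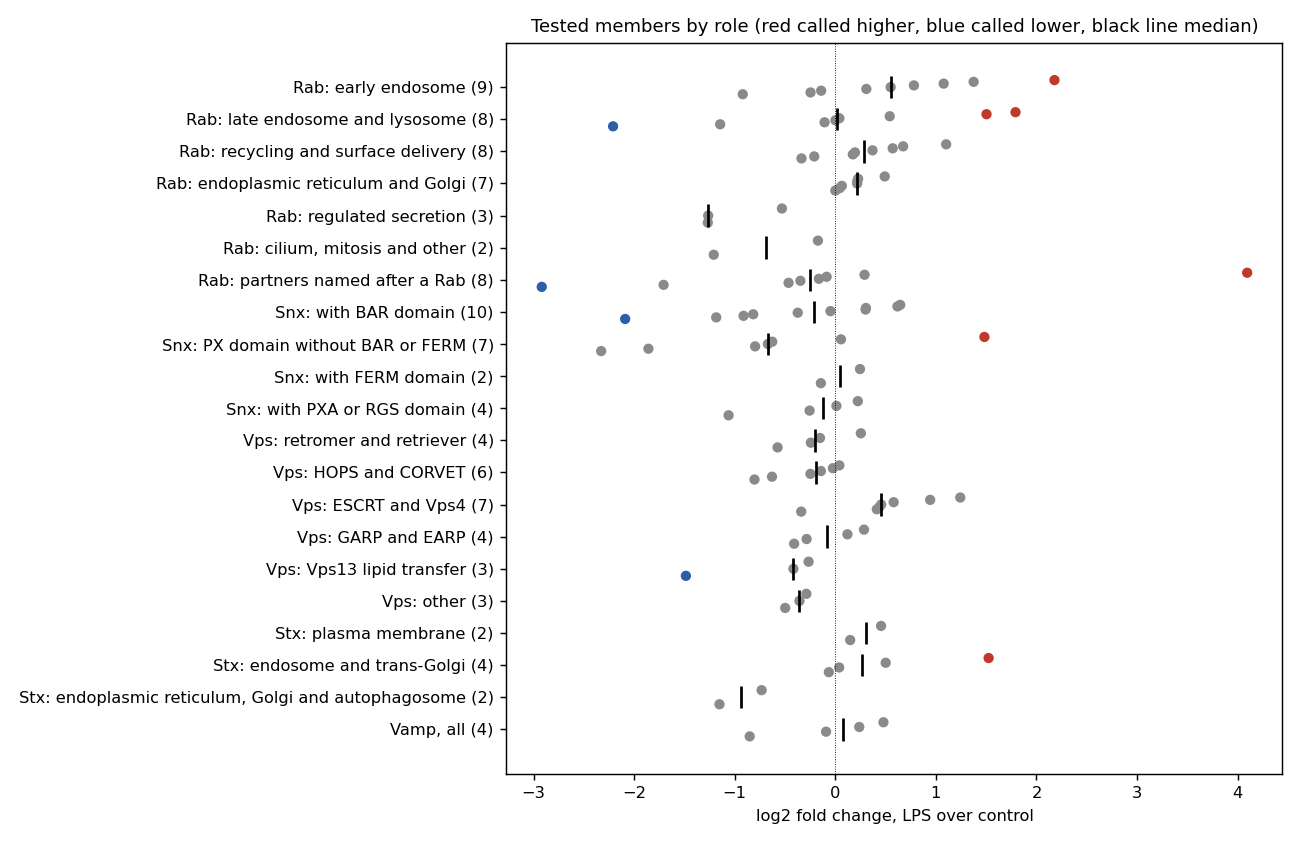
Log2 fold change of LPS over control (horizontal axis) for the tested genes of each role (rows, number tested in brackets), with the median as a black line and calls in red (higher) or blue (lower). The medians run from -1.26 for the 3 Rabs of regulated secretion to 0.55 for the 9 Rabs of early endosomes, and most points are grey (no call).

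Levels between genes were compared per kilobase of transcript, among the 37 tested Rab GTPases, which all have 1 accession. In control Rab2a (111 CPM per kb), Rab1a (108) and Rab5c (103) came first. Rab1a spanned 91.2 to 126 CPM per kb and overlapped both of its neighbours, so their order is not resolved. In LPS Rab5c (176 CPM per kb), Rab10 (141), Rab1a (126) and Rab32 (117) came first. Rab32 had been at rank 14 in control (41.2 CPM per kb) and Rab7b moved from rank 10 (53.8 CPM per kb) to rank 24 (11.6). In LPS Rab5c spanned 156 to 196 CPM per kb, Rab10 spanned 112 to 170, Rab1a 99.4 to 153, Rab32 113 to 121 and Rab2a, at rank 5, 110 to 123, so that no neighbours among these 5 were separated.

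The Rab partners held the largest changes in both directions among the tested trafficking genes. Rab11fip1 (chromosome 8, 27138773 to 27174646), an effector of Rab11 and Rab4 in endosomal recycling, had 4 and 5 counts in the control libraries and 78 and 69 in the LPS libraries, or 1.06 and 0.969 against 18.8 and 16.7 CPM. The controls had very few counts, and the LPS libraries lay close together. The rise was 17.1-fold (4.10 ± 0.38, edgeR adjusted p = 0.0032), and the call held in the 11 settings without a block in which the gene was tested (0.019 at most). It has 2 accessions, all counts fell on one of them, and its level is uncertain. Rab3il1 (chromosome 19, 10001669 to 10038380), an exchange factor that activates Rab3 and Rab8 proteins, had 20.4 and 21.9 CPM in control and 3.13 and 2.42 CPM in LPS. With 13 and 10 counts in the LPS libraries, it was 7.56-fold lower (-2.92 ± 0.33, edgeR adjusted p = 0.0060) and was called lower in all 12 settings without a block (0.045 at most). Replicates were tight in both groups.

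Other Rab partners had no call. Rab3gap1, a subunit of the GTPase-activating complex of Rab3 and exchange factor of Rab18, had 67.0 and 80.0 CPM in control and 66.6 and 64.8 CPM in LPS (-0.16 ± 0.21, adjusted p = 0.75). Rab5if had 31.5 and 33.3 against 50.8 and 49.1 CPM (0.62 ± 0.21, 0.17), with tight replicates and no overlap. Rab11fip5, a second Rab11 effector, was spread in control (16.4 and 6.01 CPM) and lower in LPS (4.09 and 2.66 CPM; -1.71 ± 0.60, 0.18), and was called lower without control replicate 2. The antisense RNAs Rab10os and Rab26os had 0.27 ± 0.35 and -0.56 ± 0.57 on the log2 scale without a call, and whether reads were counted by strand is not given.

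Of 23 tested sorting nexins 1 was called higher and 1 lower (8.7% called, beside 8.34% of all genes). LPS lay below both controls for 11 of them, beside 25.8% of all genes, and above for 5, beside 24.7%. Snx20 (chromosome 8, 88626561 to 88636133), a leukocyte nexin that binds the selectin ligand PSGL-1, was the member called higher. It had 31.5 and 34.5 CPM in control and 100.3 and 84.3 CPM in LPS, 2.79-fold higher (1.48 ± 0.22, edgeR adjusted p = 0.015). Leaving out LPS replicate 1 (1.36, adjusted p = 0.12) or LPS replicate 2 (1.61, 0.059) ended the call, as did total-count scaling (1.03, 0.058), with a range of 0.00022 to 0.12.

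Snx30 (chromosome 4, 59805131 to 59904740), a BAR-domain nexin that pairs with Snx4 in recycling and autophagy, was called lower. It had 86.1 and 65.1 CPM in control and 16.4 and 19.1 CPM in LPS, 4.26-fold lower (-2.09 ± 0.26, edgeR adjusted p = 0.0084). The controls differed, but the nearer one was still over 3 times the higher LPS library. Its call was lost without LPS replicate 1 (-1.98, 0.070, range 1.7e-06 to 0.070). Its partner Snx4 had 28.1 and 44.4 CPM in control and 35.4 and 54.4 CPM in LPS (0.30 ± 0.34, 0.70), with the libraries numbered 2 higher in both groups. Snx24 had the lowest fitted value of the family, from 14.3 and 11.4 to 1.44 and 3.62 CPM (-2.33 ± 0.50), on 6 and 15 counts in LPS, and just missed the call (adjusted p = 0.050). It was called without control replicate 2 (-2.51, 0.045), by DESeq2 (-2.33, 0.0092) and in other settings, and its adjusted p ran from 0.0092 to 0.20 without a block.

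The BAR-domain nexins of the retromer route had no call. Snx2 had 193 and 199 CPM in control and 305 and 309 CPM in LPS (0.65 ± 0.18, adjusted p = 0.099), and Snx6 had 91.6 and 86.2 against 140.2 and 133 CPM (0.62 ± 0.19, 0.14). Both had tight replicates and groups that did not overlap; neither passed the test. Snx1, which forms dimers with Snx5 or Snx6, had 138 and 170 against 151 and 146 CPM with overlap (-0.05 ± 0.20, 0.94). Other nexins of this domain class were lower without a call: Snx32 had 10.3 and 9.49 against 3.61 and 5.08 CPM (-1.18 ± 0.37, 0.14) and Snx33 had 22.8 and 16.9 against 10.6 and 10.4 CPM (-0.91 ± 0.29, 0.15). Snx14, of the class with PXA and RGS domains, had 29.7 and 36.2 against 14.9 and 16.7 CPM (-1.06 ± 0.25, 0.068), and was called lower with total-count and upper-quartile scaling and at a minimum mean of 50. Snx33 was called lower with total-count scaling. None of these 3 genes overlapped between groups. Snx3, a PX-only nexin of the retromer, had 0.06 ± 0.22, and the FERM-domain nexins Snx17 and Snx27, which recycle surface receptors, had 0.25 ± 0.25 and -0.14 ± 0.52, again with overlap.

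Of the Vps genes, Vps13c (chromosome 9, 67840316 to 67997744), a bridge-like lipid transfer protein between the endoplasmic reticulum and late endosomes, was called lower, and no other member was called. It had 106 and 96.5 CPM in control and 36.1 and 36.2 CPM in LPS, with the LPS libraries nearly identical. The level was 2.80-fold lower (-1.49 ± 0.20, edgeR adjusted p = 0.012). Leaving out either LPS library ended the call (-1.47, adjusted p = 0.11 without replicate 1 and -1.48, 0.098 without replicate 2, range 0.00016 to 0.11). Vps13a and Vps13b, of the same family, had -0.27 ± 0.31 and -0.42 ± 0.23 without a call.

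The tethers and the retromer of the Vps group had medians from -0.20 to -0.08. Retromer and retriever genes had a median of -0.20 over 4 tested members, with overlap in each. Vps35, the retromer scaffold, had 151 and 162 CPM in control and 127 and 155 CPM in LPS (-0.15 ± 0.20, adjusted p = 0.76). Vps26c, a retriever subunit outside that list, had 64.1 and 73.2 against 37.8 and 52.7 CPM without overlap (-0.60 ± 0.25, 0.25). HOPS and CORVET genes had a median of -0.20 over 6, from -0.80 for Vps18 (called lower with total-count scaling) to 0.04 for Vps16. LPS lay below both controls for 3 of these 6, beside 25.8% of all genes, and above for 0, beside 24.7%. GARP and EARP genes had a median of -0.08 over 4. Each of the 3 lists had 0 calls by edgeR, beside 8.34% of all genes, and 0 genes at an unadjusted p under 0.05.

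ESCRT genes with Vps4, which bud and cut vesicles into endosomes, had a median of 0.46 over 7. None was called, beside 8.34% of all genes (2 at an unadjusted p under 0.05). LPS lay above both controls for 5 of them, beside 24.7% of all genes. Vps4b, an ATPase that takes ESCRT-III apart, had 217 and 197 CPM in control and 308 and 253 CPM in LPS (0.44 ± 0.20, adjusted p = 0.29). Vps37b, a subunit of ESCRT-I, had 21.7 and 13.2 against 49.6 and 32.6 CPM (1.24 ± 0.36, 0.12). In both groups the libraries numbered 1 were the higher ones for Vps37b. It was called without control replicate 1 (1.63, 0.035) and without the count filter (1.35, 0.036).

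Among syntaxins, Stx6 (chromosome 1, 155158628 to 155207567), a SNARE of the trans-Golgi network and endosomes that takes part in TNF delivery in macrophages, rose. It had 69.9 and 51.9 CPM in control and 190 and 160 CPM in LPS. All LPS values were over 2 times the higher control. The rise was 2.88-fold (1.52 ± 0.24, edgeR adjusted p = 0.019). It was not called when LPS replicate 1 (1.41, adjusted p = 0.11) or LPS replicate 2 (1.65, 0.064) was left out, with a range of 0.00014 to 0.11. Stx7, a late endosomal syntaxin that forms a complex with Stx6, had 199 and 188 CPM in control and 200 and 170 CPM in LPS, with overlap (-0.06 ± 0.19, 0.91).

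Stx12, a syntaxin of recycling endosomes, had 121 and 120 against 180 and 161 CPM, without overlap (0.50 ± 0.19, adjusted p = 0.21). The Golgi and autophagosome syntaxins lay on the other side. Stx5a had 19 counts in each control library, against 6 and 10 in the LPS libraries, over 2 accessions (-1.15 ± 0.48, 0.25), and Stx17, which fuses autophagosomes with lysosomes, had 36.8 and 40.5 against 25.3 and 21.3 CPM (-0.73 ± 0.23, 0.15) and was called lower with total-count scaling.

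Of the Vamp genes, 4 of 7 were tested. Vamp3, the SNARE of recycling endosomes that meets the Stx6 complex, had 158 and 139 CPM in control and 182 and 168 CPM in LPS (0.24 ± 0.19, adjusted p = 0.57), and Vamp8, a late endosomal SNARE, had 99.8 and 93.4 against 145 and 125 CPM (0.48 ± 0.20, 0.25). Vamp4, a SNARE of the trans-Golgi network, had 50.1 and 51.7 against 31.5 and 24.9 CPM (-0.85 ± 0.23, 0.10), and was called lower with total-count (-1.30, 0.031) and upper-quartile scaling (-1.09, 0.044). The groups did not overlap for these 3 genes. Vamp2, the synaptic Vamp, was split by number in both groups (16.4 and 9.69, then 16.6 and 7.73 CPM).

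**Figure D5:**
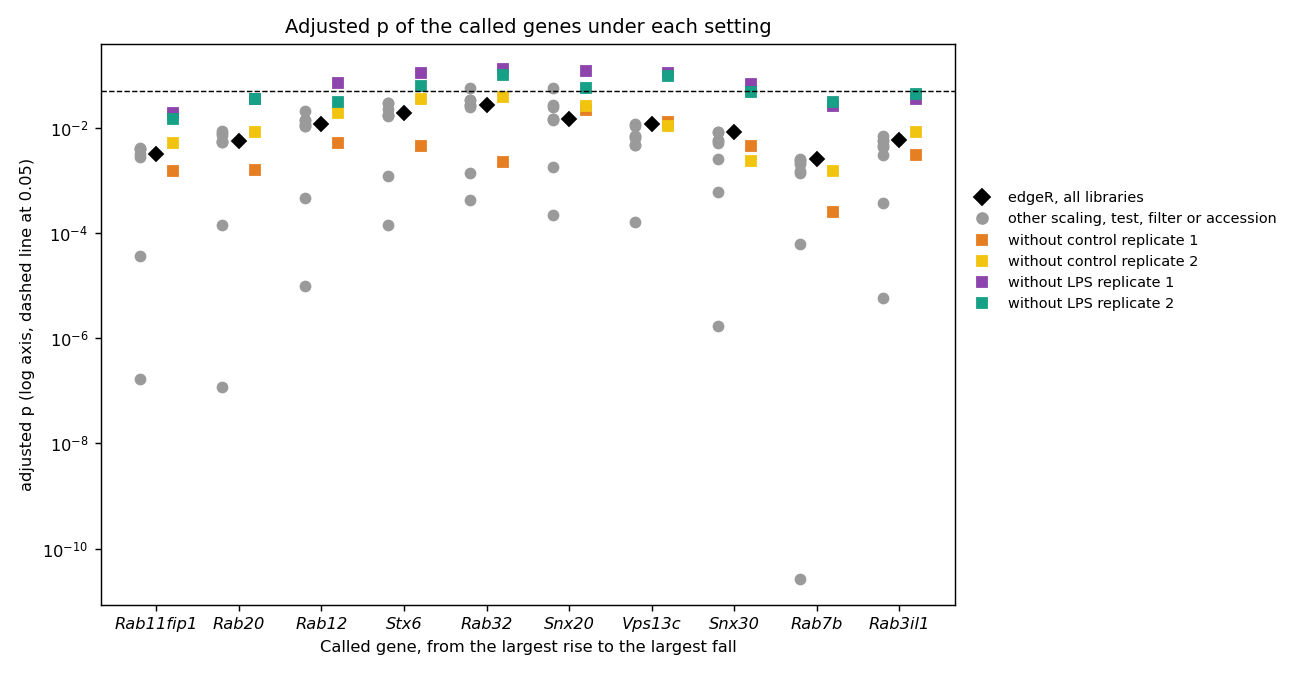
Adjusted p (vertical log axis, dashed line at 0.05) of the 10 called genes in the test with all libraries (black diamonds), under other scalings, tests, filters or accession choices (grey) and with 1 library left out (coloured squares). Rab11fip1, Rab20, Rab7b and Rab3il1 stay below the line in all settings shown, and the squares above it are those without an LPS library, up to 0.13 for Rab32.

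Libraries with the same number can be read against each other as well. Within the libraries numbered 1 the log2 ratios of LPS over control of the 6 higher genes ran from 1.27 (Rab32) to 4.15 (Rab11fip1), and within those numbered 2 from 1.29 (Snx20) to 4.11 (Rab11fip1). The 4 lower genes ran from -2.71 (Rab3il1) to -1.56 (Vps13c) within number 1 and from -3.18 to -1.41 within number 2. Since the groups of these 10 genes do not overlap, the sign of each ratio was fixed, and the ratios give the sizes only.

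Other genes of the pathway, taken from 7 lists of regulators and partners, had 101 tested members, of which 5 were called higher (4.95%, beside 6.55% of all genes) and 1 lower (0.99%, beside 1.79%), with a median of -0.08. Eea1, the Rab5 effector that tethers early endosomes, had 140 and 145 CPM in control and 343 and 321 CPM in LPS (1.22 ± 0.18, edgeR adjusted p = 0.015). Stxbp3, which guides plasma membrane syntaxins, rose by 1.18 ± 0.19 (0.022), and Chmp4b, the main filament subunit of ESCRT-III, by 1.14 ± 0.22 (0.039). Rab GTPase-activating proteins held the other 3 calls, among 18 tested (16.7% called, beside 8.34% of all genes). The median log2 fold change of these 18 was -0.34. Tbc1d13, which acts on Rab35, rose by 1.35 ± 0.27 (0.039), Tbc1d1 rose from 4 and 8 counts to 48 and 30 counts (2.80 ± 0.48, 0.024), and Tbc1d16 fell from 77.9 and 47.5 to 15.9 and 9.91 CPM (-2.28 ± 0.38, 0.022). SNARE partners such as the Snap, Vti1 and Gosr genes had 0 calls among 11 tested (1 at an unadjusted p under 0.05), genes of Rab delivery 0 among 7 (0) and Rab exchange factors 0 among 19 (3). These 3 lists stand beside 8.34% called of all genes.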

How the data were processed

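RNA of 4 samples of primary mouse microglia was sequenced as paired ends from ribosome-depleted, directional libraries, per the labels' protocols. The authors deposited whole-number counts for 32915 RefSeq accessions. Although its name says normalized, the column totals differ and the values are whole, and they were treated as counts; an earlier scaling was not tested for. Per the submitters' processing notes, the tools were TopHat2 2.0.10, HTSeq 0.6.1, Cufflinks 2.2.1, Trimmomatic 0.33 and CASAVA 1.8.2, with build mm10. Tool roles, annotation and strandedness of counting were not given in the sources used here. Accessions were named from RefSeq (GRCm38.p6, 32483) or GENCODE metadata (191), 241 stayed unnamed (20.1% to 24.9% of counts per library), and counts were summed per symbol. No column was left unused.

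Genes averaging 10 or more counts were tested with edgeR 4.0.16 (quasi-likelihood, two-sided, TMM, no covariate, R 4.3.3, Benjamini-Hochberg over 9548 genes at 0.05). Each SE is the size of the log2 fold change over the root of F, CPM are TMM-scaled and the common biological coefficient of variation was 0.283. The test was checked on simulated counts that held no effect of library number, so that check does not cover such an effect. Alternatives were other scalings and filters, DESeq2 1.42.0, limma-trend 3.58.1 on log2(count + 1) of the deposited values, 1 accession per gene, the replicate block and leaving out each library. Transcript lengths came from GENCODE M21. Values are given for all called genes and, per family, for the 2 with the highest mean count and the 2 with the largest absolute log2 fold change; further genes illustrate a role and were chosen after their values were seen. Genes and lists were chosen with earlier results of these data known.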

Additional observations from a re-analysis of the deposited data

How the results depend on the processing

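Rab11fip1, Rab20, Rab7b and Rab3il1 kept their call in every setting in which they were tested, and all 10 called genes kept their direction. Of the 10, 9 were called with total-count scaling, 9 in limma-trend after quantile normalization, 10 by DESeq2, 4 without LPS replicate 1 and 6 without LPS replicate 2. Total-count scaling moved the all-gene median (log2) from -0.05 to -0.48, upper-quartile scaling to -0.28 and the quantile setting to -0.14. Relative to that median the family differences stayed within 0.03 of their values under both scalings, while in the quantile setting that of Rab went from 0.22 to 0.06, that of Snx from -0.21 to -0.37 and that of Vamp from 0.12 to -0.05. The number called higher (6) was 10 without the count filter (all genes: 835 of 21352, against 625 of 9548), and 2 to 10 with 1 library left out (339 to 660). The number called lower (4) was 13 with total-count scaling, 9 with upper-quartile scaling, 7 by DESeq2, 7 in limma-trend, 7 at a minimum mean of 50 (Rab11fip1 is then not tested), and 2 to 9 with 1 library left out. Over all genes the lower calls (171) were 489, 320, 227, 322, 237 and 33 to 237 in the same settings. Medians under total-count scaling were -0.50 for all trafficking genes, -0.24 for Rab GTPases, -0.61 for Rab partners, -0.69 for Snx, -0.68 for Vps, -0.36 for Stx and -0.35 for Vamp genes. Under upper-quartile scaling they were -0.28, -0.051 (Rab), -0.40 (Rab partners), -0.49 (Snx), -0.48 (Vps) and -0.14 (Stx). In the quantile setting they were -0.22, -0.075 (Rab), -0.51 (Snx), -0.36 (Vps) and 0.029 (Stx). At a minimum mean of 50 they were -0.27 (Rab partners), -0.12 (Snx) and 0.038 (Stx), without the filter -0.14 (Vps) and 0.25 (Stx), and with 1 accession per gene -0.087 (Rab partners). With 1 library left out the medians ran from -0.10 to 0.03 for all trafficking genes, -0.023 to 0.25 for Rab, -0.29 to 0.23 for Rab partners, -0.45 to -0.15 for Snx, -0.19 to -0.040 for Vps, -0.030 to 0.24 for Stx and -0.27 to 0.33 for Vamp genes. The sign of single genes was followed only for the called genes and a few per family. These few were the 2 with the highest mean count and the 2 with the largest absolute log2 fold change. Among the genes followed, those without a call that changed sign were Snx1 (0.058 without the filter, -0.20 to 0.077 with 1 library left out), Stx7 (0.041 without the filter, -0.18 to 0.053 with 1 library left out), Vamp3 (-0.19 with total-count scaling, -0.25 in limma-trend) and Vps4b (-0.16 in limma-trend). Other genes without a call were not followed for sign. The cause of these changes was not tested. The settings with 1 library left out held fewer libraries, and that with a minimum mean of 50 held fewer genes.

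With the replicate block, 24 trafficking genes were called higher and 25 lower, and all 10 remained called, beside 1676 higher and 1258 lower calls over all genes (44.1% against 30.7%). The further calls included Rab10, Rab8b, Snx2, Snx6, Vps37b and Vamp4. Deviations of the libraries numbered 1 from their group means correlated across genes between control and LPS (r = 0.673), but the labels do not say that a number marks a shared culture, and with 2 libraries per group a pairing cannot be settled. Depth limits genes with few counts, such as Rab11fip1 and Rab3il1, through counting error.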
